A study of Mus musculus with 18 samples.

Results

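The comparison set 3 mouse blood samples whose RNA was purified with the PAXgene blood RNA system against 9 purified with the Mouse RiboPure-Blood kit. These were all the samples at 0 Gy and 2 Gy, 12 of the 18 arrays of the series, chosen by the kit named in each label. The 8 Gy samples had no PAXgene counterpart and were left out. Every sample was whole blood of a different male C57BL/6N mouse aged 8 to 12 weeks, taken by cardiac puncture 6 hours after exposure to a cesium gamma source or sham treatment. At 0 Gy (sham) there were 2 PAXgene and 5 RiboPure mice, and at 2 Gy there were 1 PAXgene and 4 RiboPure mice. In all samples globin RNA was depleted with the Globinclear kit, and the rest was amplified, labelled with Cy3 and hybridised to an Agilent 1-colour array, 1 array per mouse. Expression is given as log2 signal above the array's own 75th percentile, so that a value of 0 marks that percentile, and a difference is PAXgene minus RiboPure with dose as a term.

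PAXgene tubes contain a reagent that lyses blood cells and precipitates their nucleic acids at once, and the RNA is later recovered on a silica membrane. RiboPure-Blood lyses the cells in a guanidinium-based solution, extracts with acid phenol and chloroform, and then binds the RNA to a glass-fibre filter. Whole blood holds RNA of leukocytes, platelets and reticulocytes, the last rich in globin and ribosomal protein transcripts. Nuclear RNAs such as Malat1, cytoplasmic messenger RNAs and globin RNA are all part of such a lysate.

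The kit could not be told apart from the slide. The 3 PAXgene arrays lay on 2 slides, the RiboPure arrays on 5 others, and no slide and no scan day held both kits. The 75th percentile of processed signal ranged from 46.4 to 425 intensity units over the 12 arrays, and 37.6% to 59.4% of probes were well above background. Replicates 4 at 0 Gy and 3 at 2 Gy of the RiboPure groups stood apart on the first principal component, which carried 39.5% of the variance, at 142 and 146 against -37.0 to -15.7 for the others. These 2 libraries were rich in Alb, the liver transcript that encodes serum albumin: it was at 9.60 and 10.32 there and at most 1.92 on any other array. Some results that rest on the 9 RiboPure arrays are given below with and without these 2 libraries. A result given only once may also have changed without them. Counts of calls are from the fit to all 12 arrays unless another fit is named.

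Of 14232 genes tested, 347 (2.44%) differed between the kits at an adjusted p under 0.05 (limma, Benjamini-Hochberg over all genes). PAXgene was higher for 201 (1.41%), with a median difference of 1.95 on the log2 scale, and lower for 146 (1.03%), with a median of -1.74. The difference was 2-fold or more for 193 of the higher and 133 of the lower genes. Of the higher genes 13 were well above background on no RiboPure array, and of the lower genes 42 on no PAXgene array, so these passed the filter on low signal only through the other kit. For 290 of the 347 the PAXgene and RiboPure arrays did not overlap. Over all genes the groups did not overlap with PAXgene above for 3.63% and below for 2.36%. The median over all genes was 0.08, and 55.9% of genes had a positive difference. All 347 had the same sign at 0 Gy and at 2 Gy, and the test of whether the kit difference changed with dose called 0 genes (0.0%), with 103 at an unadjusted p under 0.05. That test had a single 2 Gy PAXgene array, assumed to vary like the others.

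The individual PAXgene arrays contributed unequally. Of the 201 higher genes, 201 lay above every RiboPure array on replicate 6 at 0 Gy, 200 on replicate 5 at 2 Gy and 163 (81.1%) on replicate 7 at 0 Gy. The median distance of these genes from the RiboPure mean of the same dose was 2.21, 2.29 and 1.19 for the same arrays. For the 146 lower genes the 3 arrays were closer, with 141, 144 and 134 genes below every RiboPure array and median distances of -1.74, -1.69 and -1.63. Replicates 6 and 5, the pair with the larger distances among the higher genes, shared a slide.

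The number of genes called rested on single libraries. It fell to 4 without the 2 Gy PAXgene array and to 23 without PAXgene replicate 6. It was 127 and 225 without RiboPure replicates 2 and 3 at 0 Gy, and 130, 164 and 194 without RiboPure replicates 1, 2 and 4 at 2 Gy. It rose to 628 without RiboPure replicate 4 at 0 Gy, and to 1136 (671 higher and 465 lower) without both Alb-rich libraries, among them all 347. With the slide as a random block, 151 genes were called, 68 higher and 83 lower, all of them among the 347. The sign of each of the 347 was the same in every alternative in which it was tested. Among 48 called genes followed one by one, 7 were still called without PAXgene replicate 6, 4 without the 2 Gy PAXgene array and 48 without both Alb-rich libraries.

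Probe sequence is shown here because the genes called in the 2 directions differed in it. Each probe is a 60-base oligonucleotide, given 5′ to 3′ as the files hold it. Their coordinates are on the mouse build mm7, and no gene annotation of that build was used here. The first 5 probes belong to genes higher with PAXgene, and capitals mark runs of 5 or more C or T. Runs of A or T are not marked in them, though some, such as Olfr1366, hold such runs. BC006965 lies at chr11:112796899-112796958, 4921534H16Rik at chr9:97646785-97646844, Olfr1221 at chr2:88955579-88955638, Olfr1366 at chr13:20903445-20903504 and Olfr368 at chr2:37339629-37339688.
BC006965: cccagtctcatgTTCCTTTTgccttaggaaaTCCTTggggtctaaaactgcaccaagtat
4921534H16Rik: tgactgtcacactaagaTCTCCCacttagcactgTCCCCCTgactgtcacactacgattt
Olfr1221: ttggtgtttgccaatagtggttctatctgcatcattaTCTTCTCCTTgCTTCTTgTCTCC
Olfr1366: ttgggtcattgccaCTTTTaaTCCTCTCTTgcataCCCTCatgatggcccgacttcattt
Olfr368: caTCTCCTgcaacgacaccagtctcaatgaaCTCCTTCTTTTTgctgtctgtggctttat

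The next 5 probes belong to genes lower with PAXgene, and capitals mark runs of 5 or more A or T. Runs of C or T are not marked in them, though some, such as Malat1, hold such runs. Malat1 lies at chr19:5695332-5695391, Neat1 at chr19:5737370-5737429, Kcnq1ot1 at chr7:139704409-139704468, 2810427C15Rik at chr2:92157645-92157704 and 8030431J09Rik at chr2:103439897-103439956.
Malat1: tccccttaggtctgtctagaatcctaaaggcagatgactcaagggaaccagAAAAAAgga
Neat1: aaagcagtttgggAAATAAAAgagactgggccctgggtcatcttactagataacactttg
Kcnq1ot1: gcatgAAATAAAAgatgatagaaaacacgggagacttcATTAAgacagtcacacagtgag
2810427C15Rik: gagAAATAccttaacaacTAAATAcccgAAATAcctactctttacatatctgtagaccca
8030431J09Rik: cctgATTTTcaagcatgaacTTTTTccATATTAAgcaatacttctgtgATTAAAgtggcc

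Runs of this length are common. A run of 5 or more C or T was present in 75% of the probes of all genes tested, 86.6% of those called higher and 70.5% of those called lower. A run of 5 or more A or T was present in 69.1%, 51.7% and 87.0% of the same sets. Runs of 8 or more set the groups further apart: 43.8% of higher and 9.59% of lower genes had such a C or T run, against 20.1% of all, and 7.46% and 40.4% had such an A or T run, against 18.8% of all. The mean share of C in the probe was 26.8% for higher genes, 16.7% for lower genes and 21.4% for all.

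The kit difference rose with the GC content of the probe. The median difference was -0.26 for probes under 36% GC, -0.03, 0.14 and 0.28 in the next 3 bins, and 0.39 for probes of 52% or more. Among 2400 genes with probes under 36% GC, 79 were lower (3.29%) and 8 higher (0.333%), and among 2246 genes with probes of 52% or more, 2 were lower (0.089%) and 69 higher (3.07%). Across the 14232 genes, which share the same arrays, Spearman's rho of the difference was 0.36 with GC content, 0.33 with C and 0.07 with G. The order of the bins was the same in the lower 2 and the upper 2 quintiles of expression, with medians from -0.40 to 0.54 and from -0.16 to 0.31.

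**Figure D1:**
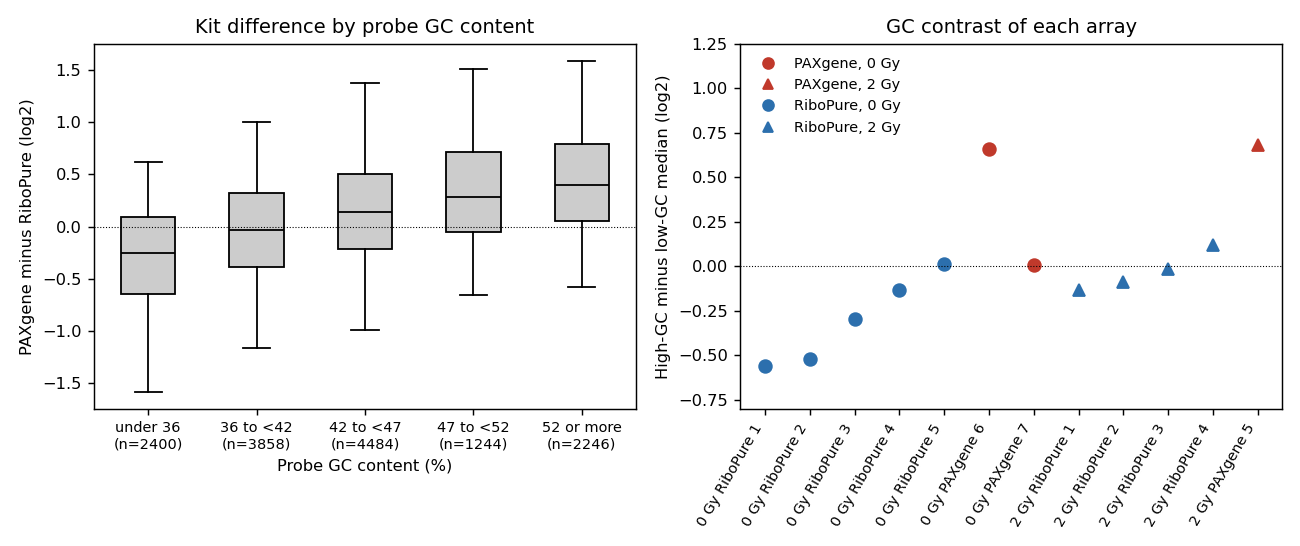
Kit difference and probe GC content. Left, boxes of the PAXgene minus RiboPure log2 difference of 14232 genes in 5 bins of probe GC content (box, quartiles; line, median; whiskers, 5th to 95th percentile), with medians from -0.26 to 0.39. Right, for each of the 12 arrays, the median of genes with high-GC probes minus that of genes with low-GC probes; 2 PAXgene arrays lie at 0.66 and 0.68, above all RiboPure arrays, and the third at 0.01 lies within their range.

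The array-level view of the same contrast separated the PAXgene arrays among themselves. The median of genes with probes of 52% GC or more, minus that of genes under 36%, was 0.66 on PAXgene replicate 6 at 0 Gy, 0.68 on replicate 5 at 2 Gy and 0.01 on replicate 7 at 0 Gy. On the 9 RiboPure arrays its lowest value was -0.56, its median -0.13 and its highest 0.12. The contrast was chosen after the data were seen, so it was given no test. When each array's trend with probe GC content was removed, 347 genes were again called (193 higher and 154 lower), and 263 were shared with the first 347.

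Malat1, Neat1 and Kcnq1ot1, long noncoding RNAs retained in the nucleus, were lower with PAXgene. Malat1, an abundant transcript of nuclear speckles, was at 0.69, 0.33 and -0.85 on the PAXgene arrays, listed here and below in the order replicate 6 and replicate 7 at 0 Gy, then replicate 5 at 2 Gy. On the RiboPure arrays its lowest, median and highest values were 1.81, 2.36 and 3.02, so the kits did not overlap. Malat1 fell by 2.43 on the log2 scale (SE 0.33, limma adjusted p = 0.00597). Its 4 probes differed by -2.04, -3.30, -2.25 and -2.43, with adjusted p of 0.00132, 0.000708, 0.00204 and 0.00243 in the fit over probes, and they ran from 35% to 45% GC. The call was lost only without the 2 Gy PAXgene array among the 12 fits that left out 1 library (adjusted p = 0.0991).

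Neat1, which scaffolds the nuclear paraspeckles and neighbours Malat1 on chromosome 19, was at 3.63, 3.45 and 3.54 with PAXgene and at 4.37, 4.67 and 5.81 (lowest, median and highest) with RiboPure. All PAXgene arrays lay below all RiboPure arrays. The difference was -1.28 (SE 0.29, limma adjusted p = 0.0439). It was the least stable of these calls: it passed in 3 of the 12 fits without 1 library, with adjusted p up to 0.372, and gave an adjusted p of 0.0621 with the slide as a block.

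Kcnq1ot1, the antisense transcript that silences its imprinted domain in cis, was at -1.89, -2.49 and -3.25 with PAXgene and at -1.47, -1.11 and 0.37 with RiboPure. The kits did not overlap, and the difference was -1.88 (SE 0.28, limma adjusted p = 0.0107). The call was lost without PAXgene replicate 6 or without the 2 Gy PAXgene array, with adjusted p up to 0.134. Meg3, an imprinted noncoding RNA of the same list, was at -0.75, -1.54 and -0.82 with PAXgene and at -2.94, -1.75 and -1.17 with RiboPure. It differed by 1.10, opposite in sign, and did not pass (limma adjusted p = 0.163). Of the 12 measured members of the list of nuclear-retained and other long noncoding RNAs, Malat1, Neat1 and Kcnq1ot1 fell, 0 rose and 9 did not pass, with a median of -0.20.

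Among all 280 genes that RefSeq types as lncRNA, 11 were lower (3.93%, against 1.03% of all genes) and 7 higher (2.5%, against 1.41%), while the median was 0.30. The 11 lower genes were all below the range of the RiboPure arrays. They included 3 named after their values were seen: Mirt1 at -1.91 (SE 0.39, limma adjusted p = 0.0332), Kantr at -1.49 (SE 0.25, adjusted p = 0.0146) and AY036118 at -1.90 (SE 0.25, adjusted p = 0.00597). Both probes of Mirt1 were lower, at -1.91 and -1.78. The 2 probes of AY036118 disagreed: the one of 45% GC that stands for the gene differed by -1.90, and the other, of 60% GC, by 0.72 with an adjusted p of 0.234. The count of 11 fell to 3 without PAXgene replicate 6 and to 0 without the 2 Gy PAXgene array, and it was 7 without RiboPure replicates 2 or 3 at 0 Gy, 1 at 2 Gy or PAXgene replicate 7.

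**Figure D2:**
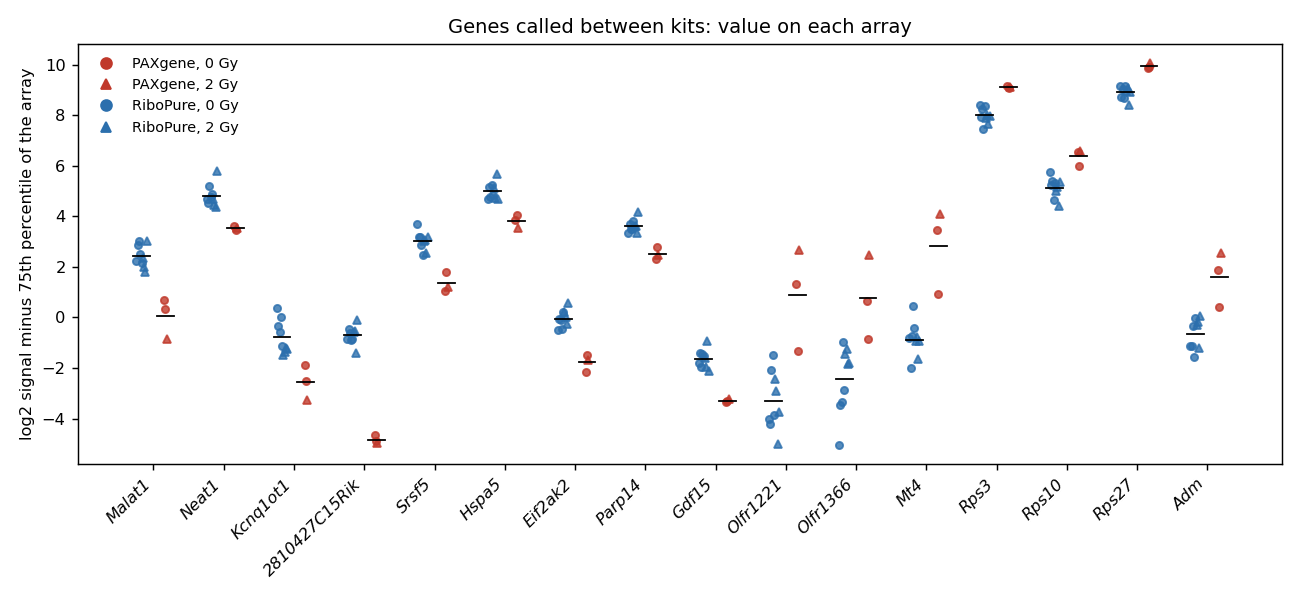
Signal of 16 genes on each array, as log2 signal minus the array's 75th percentile (circles, 0 Gy; triangles, 2 Gy; 3 PAXgene and 9 RiboPure arrays; lines, kit means). Malat1, Neat1, Kcnq1ot1 and 2810427C15Rik lie lower on all 3 PAXgene arrays than on any RiboPure array, and Olfr1221, Mt4, Rps3 and Rps27 lie higher.

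Among the 15 largest falls were 8 cDNA clones with RIKEN names and no protein or lncRNA annotation. 2810427C15Rik was at -4.66, -4.89 and -4.98 with PAXgene, well above background on none of these arrays, and at -1.39, -0.61 and -0.12 with RiboPure. It was at least 14.2-fold lower with PAXgene (limma adjusted p = 2.731e-05), where such a bound compares the RiboPure mean with the dimmest detected signal of each PAXgene array. It passed the filter on low signal only through the RiboPure arrays, and the filter at all 12 arrays removed it. The bound holds for the processed signal: with normexp background correction the difference was -1.29 (adjusted p = 0.0147). Over all alternatives that tested it the adjusted p ran from 1.29e-08 to 0.0147.

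Of the 254 such clones tested, 35 were lower (13.8%, against 1.03% of all genes) and 4 higher (1.57%, against 1.41%). The 4 higher ones were A930005C09Rik, 2900041H08Rik, 2210019G11Rik and D230002A01Rik, of which the last 3 are named because the count is small. All 35 lower clones lay below every RiboPure array, and 25 were not well above background on any PAXgene array. Those 25 passed the filter on low signal, which asked for 3 of the 12 arrays, only through the RiboPure arrays, so they could differ in 1 direction only and the share of 13.8% is a description. With the filter set at all 12 arrays, 4 of 92 clones were lower and 2 higher. Among the clones that can be given only as bounds, 2900042K05Rik was at least 6.38-fold lower (limma adjusted p = 0.00537), B930069K15Rik at least 6.04-fold (0.0107), 2610027H17Rik at least 5.18-fold (0.00784), A030007N12Rik at least 3.52-fold (0.0407), 8430437O03Rik at least 3.25-fold (0.0207) and 2610030P05Rik at least 3.24-fold (0.00155). A630081D01Rik, well above background on 1 PAXgene array, differed by -2.87 (SE 0.56, limma adjusted p = 0.0291). A total of 228 of the 254 clones have no entry in the RefSeq table, so what they encode is not known here.

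The clones divided by probe GC content. Of 96 with probes under 36% GC, 28 were lower (29.2%), with a median of -1.11. Of 118 from 36% to under 47%, 7 were lower (5.93%), with a median of 0.19, and of 40 at 47% or more, 0 were lower, with a median of 0.66. Protein-coding genes outside the named families with probes under 36% GC were lower in 40 of 2135 cases (1.87%). The count of 35 was 29 after the GC trend of each array was removed and 5 with normexp background correction. It was 9 without PAXgene replicate 6, 3 without the 2 Gy PAXgene array, and at least 24 without any other single library. A pair of RefSeq lncRNA genes with RIKEN names were also among the 15 largest falls. 8030431J09Rik was at -2.90, -4.73 and -2.21 against a RiboPure range of -1.17 to 1.08 (limma adjusted p = 0.0146), and 6330407A03Rik at -1.80, -2.99 and -2.83 against -0.73 to 1.07 (adjusted p = 0.00597).

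Several protein-coding transcripts were lower with PAXgene. Rnf185, a ubiquitin ligase of endoplasmic reticulum degradation, was at least 6.30-fold lower (limma adjusted p = 0.000722), at -4.17, -3.88 and -4.95 against -2.07 to -0.97, and was called in all 12 fits without 1 library. With normexp background correction Rnf185 differed by -0.77 and did not pass (adjusted p = 0.0681). Its second probe, of 40% GC against 35%, differed by -0.86 and did not pass in the fit over probes (adjusted p = 0.28). Cdcp1, a transmembrane glycoprotein, was at least 4.83-fold lower (adjusted p = 0.0104). Both were well above background on no PAXgene array and so passed the filter only through RiboPure. Cdcp1 lost the call without PAXgene replicate 6 or without the 2 Gy PAXgene array.

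Lalba encodes the milk protein alpha-lactalbumin. It was well above background on all 9 RiboPure arrays, at 0.24 to 2.33, while the PAXgene arrays split: -3.94, 0.46 and -5.04. It was well above background on only 1 of the 3 PAXgene arrays, so the difference of -4.36 (SE 0.92, limma adjusted p = 0.0365) rests partly on values at background. The kits overlapped, since PAXgene replicate 7 lay among the RiboPure arrays. The call passed in 5 of the 12 fits without 1 library. D3Ertd751e showed a smaller spread, at -4.06, -2.49 and -4.76 against -2.61 to -0.46, and differed by -2.50 (SE 0.44, adjusted p = 0.0187).

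Splicing and stress transcripts gave single calls within lists that otherwise did not pass. Srsf5, a serine- and arginine-rich splicing factor, was at 1.05, 1.80 and 1.21 with PAXgene against 2.48 to 3.70 with RiboPure, a difference of -1.69 (SE 0.27, limma adjusted p = 0.0142). It was the only one of 52 spliceosome and RNA-binding genes to pass (median -0.11). In the fit without the Alb-rich libraries 2 of the 52 were called higher and 4 lower, against 671 and 465 of all 14232 genes. The second probe of Srsf5, of 45% GC against 35%, differed by -0.96 and did not pass in the fit over probes (adjusted p = 0.125). Hnrnpa2b1, an RNA-binding protein of the same list, differed by -0.98 (adjusted p = 0.0864).

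Hspa5, the chaperone BiP of the endoplasmic reticulum, was at 3.87, 4.06 and 3.55 with PAXgene and between 4.69 and 5.68 with RiboPure. The difference was -1.17 (SE 0.25, limma adjusted p = 0.0373), and it passed in 5 of the 12 fits without 1 library. It was the 1 call among 27 heat shock and unfolded protein genes, of which 6 had a positive difference and whose median was -0.27. Averaged over these 27 genes, the PAXgene arrays lay at -0.24, -0.35 and -0.29 relative to the RiboPure mean of the same dose, below every RiboPure array, the lowest of which was at -0.21. Hspa1a, the stress-inducible HSP70, differed by -1.09 (adjusted p = 0.127).

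Interferon-response genes leaned lower, with 5 of 32 positive, a median of -0.23 and 2 called lower (6.25%, against 1.03% of all genes). The list mean, relative to the RiboPure mean of the same dose, was -0.60, -0.07 and -0.56 on the PAXgene arrays. It ran from -0.56 to 0.81 on the RiboPure arrays, with a median of -0.08, so replicate 7 lay within their range. Without PAXgene replicate 6, 12 of 32 were positive and 0 called. Without the Alb-rich libraries the list median was -0.44, with 3 of 32 positive. Eif2ak2, the double-stranded RNA-dependent kinase PKR, was at -2.16, -1.47 and -1.70 with PAXgene against -0.51 to 0.57, a difference of -1.71 (SE 0.25, limma adjusted p = 0.00857). Parp14, an ADP-ribosyltransferase of the interferon response, was at 2.32, 2.79 and 2.47 against 3.34 to 4.18, a difference of -1.09 (SE 0.22, adjusted p = 0.0305). Of the 12 fits without 1 library, Eif2ak2 lost the call in 2 and Parp14 in 5. Mx2, interferon-induced and typed as a transcribed pseudogene in RefSeq, differed by -0.92 with an adjusted p of 0.118. The 32 genes' median probe GC content was 40.9%, against 43.3% over all genes, and after removal of each array's GC trend the list median was -0.46, with 5 of 32 positive and 1 called lower.

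Gdf15 is a secreted factor that p53 induces and that is used as a marker of radiation exposure. It was at -3.35, -3.30 and -3.21 with PAXgene, well above background on 1 of these arrays, and at -2.13, -1.59 and -0.91 with RiboPure. The difference was -1.65 (SE 0.26, limma adjusted p = 0.0126), and the kits did not overlap although the arrays span both doses. Its size rests partly on values at background, and the smallest difference in any alternative was -0.54. The call was lost without PAXgene replicate 6 or without the 2 Gy PAXgene array. Gdf15 was the 1 call of 30 p53 targets (median -0.18, 13 positive). Cdkn1a, the cell cycle inhibitor p21, was at -2.43, -4.08 and -0.30 against -3.09 to 1.62 and differed by -1.68 (SE 0.74, adjusted p = 0.254).

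Olfactory receptors gave the most higher calls of the gene families looked at. These are genes of sensory neurons, normally near the floor of detection in blood. Of 234 that passed the filter, 22 were higher (9.4%, against 1.41% of all genes) and Olfr1410 alone was lower, at -2.27 (SE 0.52, limma adjusted p = 0.0460; named for the small count). The median was 1.09, or 2.13-fold, and 86.3% had a positive difference. The groups did not overlap with PAXgene above for 26 (11.1%, against 3.63% of all genes).

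Olfr1221 was at 1.32, -1.33 and 2.66 with PAXgene and at -5.02, -3.74 and -1.47 with RiboPure (lowest, median and highest). It was 4.23 higher (SE 0.86, limma adjusted p = 0.0317). Olfr1366 was at 0.64, -0.84 and 2.48 against -5.03 to -0.98 and was 3.41 higher (SE 0.65, adjusted p = 0.0254). In both, replicate 7 was the lowest PAXgene array and came close to the highest RiboPure array. Both were well above background on 4 of the 9 RiboPure arrays. Olfr368 was 3.17 higher (SE 0.63, adjusted p = 0.0300) and Olfr71 3.05 higher (SE 0.69, adjusted p = 0.0422), but they were well above background on only 2 and 1 of the 9 RiboPure arrays, so these sizes rest mostly on background signal. Olfr1355, named after its values were seen, was well above background on no RiboPure array and at least 4.70-fold higher (adjusted p = 0.00673).

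The median over the class was also higher on each PAXgene array than on any RiboPure array. This median, relative to the RiboPure mean of the same dose, was 1.57, 0.68 and 1.13 on the PAXgene arrays. On the RiboPure arrays the lowest median was -1.21, the middle one 0.23 and the highest 0.56. The count of 22 was 0 without PAXgene replicate 6 and 0 without the 2 Gy PAXgene array. It was 12 and 3 without RiboPure replicates 1 and 2 at 0 Gy, 3, 8 and 9 without RiboPure replicates 1, 2 and 4 at 2 Gy, 47 without RiboPure replicate 4 at 0 Gy and 55 without both Alb-rich libraries. In the last of these fits 671 of all 14232 genes were called higher. With normexp background correction the class median was 0.45, and 7 were called. Within probes of 36% to under 47% GC, 18 of 195 were higher (9.23%), and after removal of the GC trend 20 of 234.

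Related classes of low blood expression leaned the same way, but the kits overlapped. On PAXgene replicate 7 the class median relative to the RiboPure mean was 0.56 for vomeronasal receptors, against a highest RiboPure value of 0.78. For keratins and keratin-associated proteins it was 0.33, against 0.535. Vomeronasal receptors had 21 of 22 positive, a median of 0.95 and 0 called. Keratins and keratin-associated proteins had a median of 0.77, and 4 of 35 were higher (11.4%, against 1.41% of all genes). These were Krtap7-1, Krtap5-4, Krtap4-6 and Krtap15, named for the small count. By contrast the 12756 protein-coding genes outside these families had a median of 0.06, with 137 higher (1.07%) and 86 lower (0.674%).

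**Figure D3:**
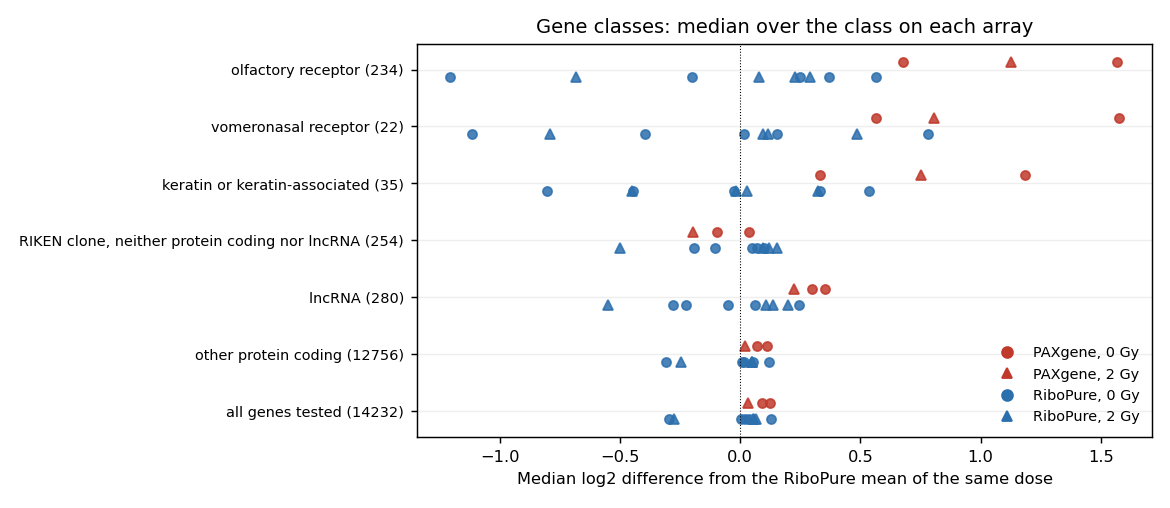
Median over each gene class on each array, as the log2 difference from the RiboPure mean of the same dose (number of genes in brackets; circles, 0 Gy; triangles, 2 Gy). The 3 PAXgene arrays lie at 0.68 to 1.57 for olfactory receptors, above every RiboPure array, while the protein-coding genes outside the families lie near 0 on the PAXgene arrays.

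The largest single rise was BC006965, a lncRNA. It was at 3.43, -0.63 and 5.37 with PAXgene and at -4.19, -2.98 and 0.22 with RiboPure. It was 5.47 higher (SE 1.09, limma adjusted p = 0.0303), but PAXgene replicate 7 lay inside the RiboPure range. Mt4, a metallothionein of stratified epithelium, was at 3.45, 0.91 and 4.10 against -1.98 to 0.44 and was 3.71 higher (SE 0.62, adjusted p = 0.0148). Its arrays did not overlap.

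Of the other members of the 15 largest rises, 4921534H16Rik, BC048507 and Tcl1b4 overlapped between kits, and E230025N22Rik and A930005C09Rik did not. 4921534H16Rik was at 5.05, 1.58 and 6.38 against -0.62 to 2.03 and was 3.78 higher (SE 0.69, limma adjusted p = 0.0209). BC048507 was at 8.57, 4.49 and 9.85 against 2.98 to 5.45, with a second probe 1.03 higher that did not pass in the fit over probes (adjusted p = 0.0558). E230025N22Rik was 4.26 higher (SE 0.82, adjusted p = 0.0261) and A930005C09Rik 3.80 higher (SE 0.66, adjusted p = 0.0172). The rest are tissue-restricted genes well above background on no RiboPure array, so they passed the filter only through the PAXgene arrays and could differ in 1 direction only. Ccdc182 was at least 7.53-fold higher (adjusted p = 0.0207), Myf6, a muscle regulatory factor, at least 7.33-fold (0.0251), Adam26a, a testis protease, at least 6.49-fold (0.0175) and Samt2b at least 4.68-fold (0.0207). Without PAXgene replicate 6, and likewise without the 2 Gy PAXgene array, all 15 lost the call.

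Probes other than the one that stood for a gene bore out the lower calls more often than the higher ones. Over 23084 probes, 454 were higher (1.97%) and 614 lower (2.66%). For 54 lower genes with 74 further probes, 56 of these had the same sign and 17 were called lower (median -0.71). For 36 higher genes with 42 further probes, 29 had the same sign, 1 was called higher and 1 lower (median 0.28). The further probes of the higher genes had a median GC content of 45%, against 50.9% for the probes that stood for them. For the lower genes these medians were 40% and 35%. Probes without a gene name were called more often than named ones: 168 of 2145 were lower (7.83%) and 93 higher (4.34%), against 2.13% and 1.72% of named probes.

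Ribosomal protein genes had positive differences across nearly the whole list. Of 79 cytosolic ribosomal protein genes, 77 had a positive difference and 30 lay above every RiboPure array (against 3.63% of all genes). The fit called 3 of the 79 higher (3.8%, against 1.41% of all genes). The list median was 0.62, or 1.53-fold. Rps27 was at 9.89, 9.92 and 10.06 with PAXgene against 8.42 to 9.17 and was 1.05 higher (SE 0.21, limma adjusted p = 0.0300). Rps3 was at 9.17, 9.08 and 9.11 against 7.47 to 8.39 and was 1.11 higher (SE 0.22, adjusted p = 0.0317). Rps10 was at 6.55, 6.00 and 6.58 against 4.43 to 5.74 and was 1.22 higher (SE 0.28, adjusted p = 0.0455). All 3 encode proteins of the small subunit, and their PAXgene arrays lay close together and above the RiboPure range.

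The second probe of Rps3 was 0.60 higher and did not pass in the fit over probes (adjusted p = 0.326). The mean over the list was 0.63, 0.50 and 0.73 on the PAXgene arrays and at most 0.33 on a RiboPure array. Many ribosomal protein genes have processed pseudogenes of near-identical sequence, whose signal a probe may share. The size of this shift depended on the scaling: the median was 0.25 with quantile normalization and 0.27 in the deposited table. Without the Alb-rich libraries, which had 2 of the lowest values on this list, the median was 0.50. In that fit 18 of 79 were called higher, against 671 of all 14232 genes. Without PAXgene replicate 6 or the 2 Gy PAXgene array, 0 were called, and with the slide as a block 0.

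Mitochondrial ribosomal protein genes had a median of 0.20, with 61 of 76 positive and Mrps2 alone called, at 1.51 (SE 0.33, limma adjusted p = 0.0400). Its call was lost in 8 of the 12 fits without 1 library. Its other probes were 1.08 and 0.29 higher and did not pass in the fit over probes (adjusted p = 0.147 and 0.658). Nuclear-encoded respiratory chain genes had a median of 0.18 with 0 of 75 called, among them Cox6a1, a subunit of cytochrome c oxidase, at 1.09 (adjusted p = 0.0719). Without the Alb-rich libraries 5 of 76 mitochondrial ribosomal and 6 of 75 respiratory chain genes were called higher, against 671 of all 14232 genes. Histone genes of the replication-dependent class had 29 of 30 positive and a median of 0.50 with 0 called. Their mean was 0.64, 0.41 and 0.65 on the PAXgene arrays, within the RiboPure range of -1.07 to 0.99. Without the Alb-rich libraries the histone median was 0.27, with 24 of 30 positive. H2ac10 differed by 0.94 (adjusted p = 0.197). The median probe GC content of these histone genes was 56.7%, against 43.3% over all genes.

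**Figure D4:**
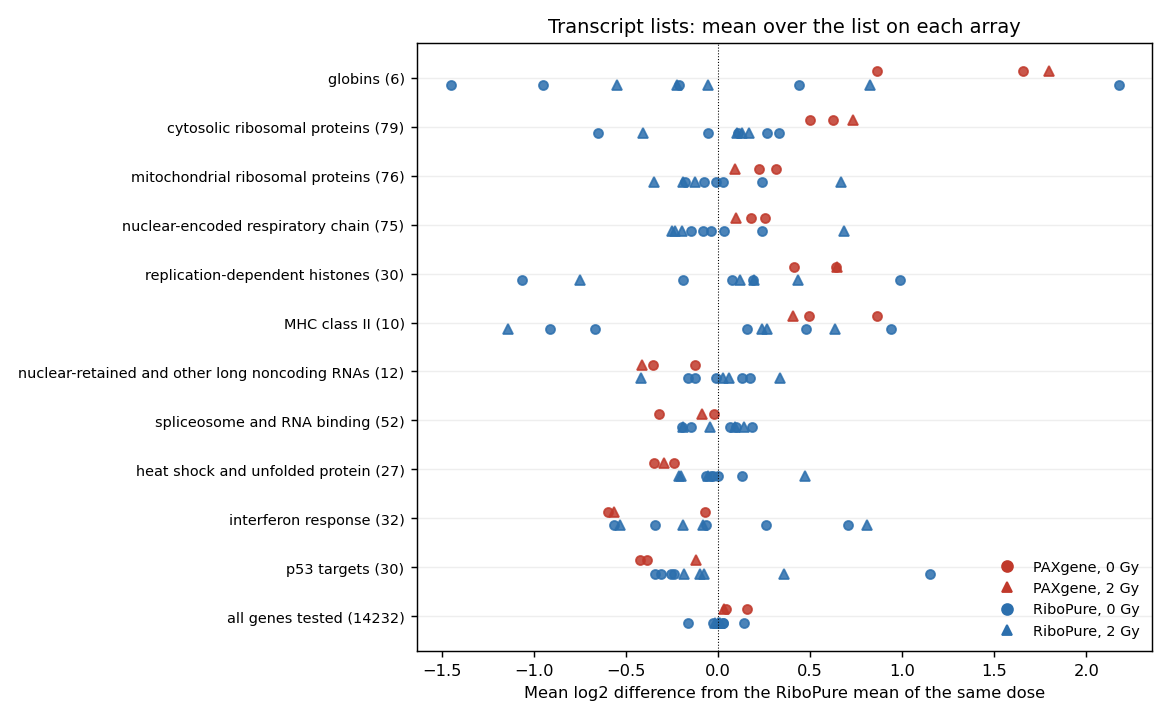
Mean over transcript lists on each array, as the log2 difference from the RiboPure mean of the same dose (number of genes in brackets; circles, 0 Gy; triangles, 2 Gy). Cytosolic ribosomal protein genes lie at 0.50 to 0.73 on the PAXgene arrays, above every RiboPure array, and heat shock and unfolded protein genes at -0.35 to -0.24, below every RiboPure array.

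Globins are the main transcripts of reticulocytes and were depleted before labelling in all samples. All 6 measured globin genes had a positive difference, with a median of 1.36, but 0 passed. Hbq1a and Hbq1b, the theta-globin pair, came closest, at 1.31 (SE 0.33, limma adjusted p = 0.0617) and 1.40 (SE 0.36, adjusted p = 0.0682). Hbq1b was at 5.84, 5.01 and 6.22 with PAXgene against 3.53 to 4.97, without overlap. The pair have near-identical sequences, so their signals may not be separate.

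The adult globins Hbb-bt and Hba-a1 were among the brightest genes, and their arrays overlapped. Hbb-bt was at 11.44, 10.85 and 11.96 with PAXgene against 8.05 to 11.36, a difference of 1.44 (SE 0.62, limma adjusted p = 0.247). Hba-a1 was at 11.26, 11.07 and 11.83 against 9.39 to 11.78, a difference of 0.53 (SE 0.37, adjusted p = 0.484). The embryonic globins varied most: Hbb-y differed by 3.24 (SE 1.33, adjusted p = 0.221) and Hbb-bh1 by 0.78 (SE 1.35, adjusted p = 0.801), with RiboPure ranges of -0.48 to 7.42 and -3.36 to 4.52. Without the Alb-rich libraries 3 of the 6 were called higher, in a fit that called 671 of all 14232 genes higher. In whole blood a smaller share of a cell type and less RNA per cell cannot be told apart, and here the extent of globin removal cannot be told apart from either.

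Other erythroid transcripts were shifted less. The 49 genes of erythroid cells and reticulocytes had a median of 0.39 with 39 positive and 0 called. Alas2, the first enzyme of erythroid heme synthesis, was at 10.95, 10.91 and 11.85 with PAXgene against 9.92 to 12.62 and differed by 0.17 (SE 0.35, limma adjusted p = 0.836), a sign that turned with quantile normalization (-0.047), in the deposited table (-0.01) and after removal of the GC trend (-0.13). Car1, a carbonic anhydrase of red cells, differed by 1.04 (SE 0.31, adjusted p = 0.106). The PAXgene means over the list, 0.48, 0.26 and 0.49, lay inside the RiboPure range of -0.69 to 1.00.

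No gene of the 14 lineage marker lists passed in the fit to all 12 arrays. T-cell genes were the nearest, with 29 of 30 positive, a median of 0.66 and 9 above every RiboPure array (against 3.63% of all genes). Cd3e, a chain of the T-cell receptor complex, was at 1.30, 1.32 and 1.19 with PAXgene and at -0.32, 0.49 and 0.68 with RiboPure. It differed by 0.98 (SE 0.26, limma adjusted p = 0.0726). Cd3d differed by 1.20 (SE 0.36, adjusted p = 0.104), Cd8b1, a CD8 subunit, by 1.15 (SE 0.34, adjusted p = 0.107) and Skap1, an adaptor of T-cell signalling, by 1.14 (SE 0.33, adjusted p = 0.102). The PAXgene arrays of these 4 genes lay above all RiboPure arrays.

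The Alb-rich libraries had the 2 lowest T-cell values. Over the list the PAXgene arrays were at 0.45, 0.68 and 0.83, and the RiboPure arrays ran from -0.94 to 0.56 with -0.61 and -0.94 in those libraries. Without both, 671 of all 14232 genes were called higher. The T-cell median was then 0.44, and 6 of 30 T-cell genes were called higher. Among them were Cd3e (0.96, limma adjusted p = 0.0240), Cd3d (0.97, adjusted p = 0.0255), Skap1 (0.91, adjusted p = 0.0300) and Cd8b1 (0.98, adjusted p = 0.0460). NK and cytotoxic genes had a median of 0.54, which was 0.27 without both libraries. Ncr1, the NK receptor NKp46, differed by 0.65 (SE 0.36, adjusted p = 0.367), and Gzma, a granzyme, by 1.43 (SE 0.43, adjusted p = 0.106).

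B-cell genes were positive in 25 of 28 cases with a median of 0.53, and the spread between arrays was wide. The list mean ran from -1.58 to 0.90 over the RiboPure arrays, and the PAXgene arrays, at 0.14, 0.76 and 0.53, lay within it. Ly6d, a surface protein of B-lineage cells, differed by 1.32 (SE 0.56, limma adjusted p = 0.237). The 10 measured MHC class II genes were all positive, with a median of 0.51 and a median probe GC content of 53.3%, and 7 were positive after removal of the GC trend, with a median of 0.25.

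**Figure D5:**
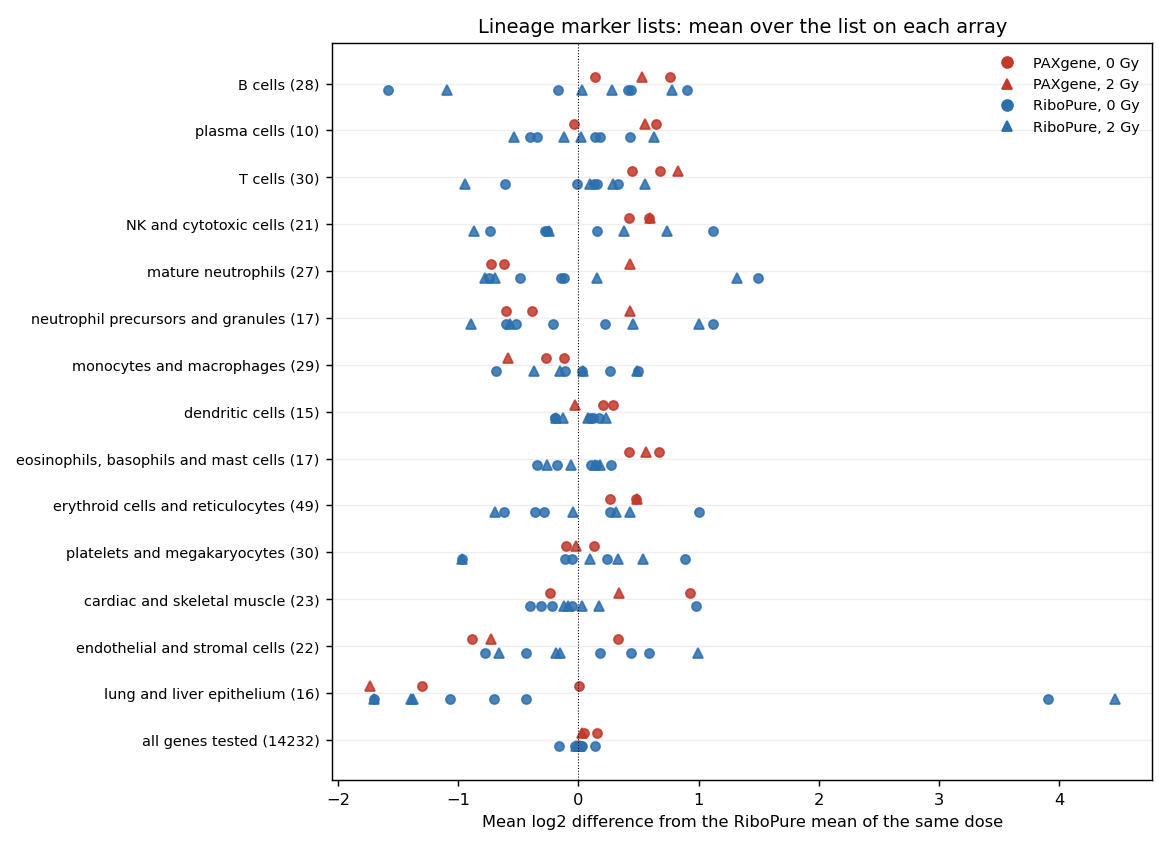
Mean over lineage marker lists on each array, as the log2 difference from the RiboPure mean of the same dose (number of genes in brackets; circles, 0 Gy; triangles, 2 Gy). The PAXgene arrays lie above every RiboPure array for eosinophils, basophils and mast cells, at 0.42 to 0.67, and 2 RiboPure arrays lie at 3.91 and 4.46 for lung and liver epithelium.

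Genes of basophils, eosinophils and mast cells had a median of 0.61, with 14 of 17 positive. The list mean was 0.67, 0.42 and 0.56 on the PAXgene arrays and at most 0.27 on a RiboPure array. Prss34, a basophil protease, differed by 1.88 (SE 0.53, limma adjusted p = 0.0901), Il4, a cytokine that basophils make, by 1.56 (SE 0.43, adjusted p = 0.0825) and Cd200r3, an activating receptor of basophils and mast cells, by 1.48 (SE 0.39, adjusted p = 0.0743). Kit, the stem cell factor receptor of mast cells, differed by -1.49 (SE 0.45, adjusted p = 0.109). Without the Alb-rich libraries 3 of the 17 genes of the list were called higher, against 671 of all 14232 genes. The median was 0.36 without PAXgene replicate 7 and 0.34 with normexp background correction.

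Neutrophil and monocyte genes leaned lower, within the spread of the RiboPure arrays. Mature neutrophil genes had a median of -0.20 with 10 of 27 positive, and of -0.49 with 6 positive without the Alb-rich libraries. The PAXgene arrays lay at -0.62, -0.73 and 0.43 on this list, and RiboPure replicates 5 at 0 Gy and 4 at 2 Gy lay at 1.495 and 1.32, with the others from -0.78 to 0.15. S100a8, a calcium-binding protein of neutrophils, differed by -0.56 (SE 0.71, limma adjusted p = 0.723), with a sign that turned under array weights (0.16), and Il1b, an inflammatory cytokine, by -1.37 (SE 0.62, adjusted p = 0.265). Over 28 alternatives the neutrophil median ran from -0.72, without the 2 Gy PAXgene array, to 0.06, the 1 value above 0.

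Monocyte and macrophage genes had a median of -0.37, with 9 of 29 positive and 0 called. The median was -0.56 without the Alb-rich libraries, with 5 of 29 positive and 1 called lower, against 465 of all 14232 genes. Csf1r, the receptor for macrophage colony-stimulating factor, differed by -0.35 (SE 0.35, limma adjusted p = 0.634). One of its other 2 probes was called lower in the fit over probes, at -1.17 (adjusted p = 0.0309). Fn1, fibronectin, differed by -2.29 (SE 0.85, adjusted p = 0.177). Platelet genes had a median of 0.03, and Pf4, platelet factor 4, differed by 0.20 (SE 0.38, adjusted p = 0.818), with a sign that turned with quantile normalization (-0.25), in the deposited table (-0.23) and without the Alb-rich libraries (-0.038). Dendritic cell genes also had a median of 0.03. The platelet median was -0.22 without the Alb-rich libraries, with 2 of 30 called lower, against 465 of all 14232 genes. Over 28 alternatives the platelet median was below 0 in 14 and the dendritic cell median in 8, so neither has a settled direction.

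Lists of solid tissue transcripts gave 0 calls. The lung and liver epithelium list had a median of -1.01, which was -0.27 without the 2 Alb-rich libraries. Krt8, an epithelial keratin, differed by -2.01 (SE 1.45, limma adjusted p = 0.504). Sftpc, the surfactant protein of alveolar cells, was at 5.14, 0.07 and -4.93 on the PAXgene arrays, highest on replicate 6 at 0 Gy, and at most -1.49 on any RiboPure array. The difference was 3.63 (SE 1.69, adjusted p = 0.283). Cardiac and skeletal muscle genes had a median of 0.29 with 0 of 23 called. Actc1, cardiac actin, was at 1.82, 1.83 and 2.46 against 0.33 to 2.71 and differed by 0.29 (SE 0.40, adjusted p = 0.743), with a sign that turned under array weights (-0.033). Myl3, a cardiac myosin light chain, differed by 1.51 (SE 0.43, adjusted p = 0.0918).

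Adm, which encodes the vasodilator peptide adrenomedullin, was the only call among 31 glycolysis and hypoxia genes. It was at 1.87, 0.41 and 2.55 with PAXgene against -1.56 to 0.07 and was 2.33 higher (SE 0.43, limma adjusted p = 0.0209). Hk2, a hexokinase of the same list, was at -1.12, opposite in sign (SE 0.31, adjusted p = 0.0790). Immediate early, NF-kB and inflammatory, and NRF2 genes had medians of 0.01, 0.08 and -0.01 with 0 called.

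Transcript coverage and array brightness did not differ detectably between the kits. Coverage was measured on 2347 genes with probe centres at least 300 bases apart on the genome, introns included. The distance on the transcript may be shorter and was not worked out. The signal of the probe nearer the 5′ end, relative to that nearer the 3′ end, was 0.07, -0.02 and 0.10 on the PAXgene arrays. It ranged from -0.15 to 0.09 on the RiboPure arrays. The difference of 0.07 had p = 0.19 in an exact 2-sided permutation test within dose, whose smallest possible p over 105 arrangements is 0.00952. The 75th percentile of log2 signal differed by -0.19 (exact permutation p = 0.724), and the number of probes well above background by 259 (exact permutation p = 0.886). Over 13612 genes with a genomic length in RefSeq, the shortest quintile of 2723 genes had a median kit difference of 0.33. In it 87 were higher (3.2%, against 1.41% of all genes) and 11 lower (0.404%, against 1.03%). The longest quintile, also of 2723 genes, had a median of -0.06, with 21 higher (0.771%) and 35 lower (1.29%). This length is the span on the genome, and it was not set apart from probe GC content or gene class.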

How the data were processed

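Blood RNA was measured on 1-colour Agilent arrays, 1 per mouse. Per the file headers, the deposited intensity (processed signal) came from Agilent Feature Extraction 9.5.3.1 with spatial and multiplicative detrending on; probe coordinates are on mm7. The deposited series table also holds an intensity, whose columns share a median of 20.7; the authors' steps to it are not given in the sources used here, and it served as an alternative. Processed signal was averaged over spots on a log2 scale and reduced by the array's 75th percentile. Probes well above background on at least 3 of the 12 arrays were kept (23084 probes, 14232 genes), with the brightest probe standing for its gene. Names were updated from the RefSeq table of GRCm38.p6: 23082 of 41174 probes matched by accession, 9655 by symbol, 1900 kept the file's name and 6537 had none. Limma 3.58.1 in R 4.3.3 fitted kit and dose, checked on simulated data.

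A probe well above background on no array of a kit gives only a bound. Arrays, 3 against 9, limit the precision, and the errors are standard errors. Each label names a separate mouse. The genes named were the 15 largest differences in each direction among those called, in each list the 4 members or fewer ranked first by p, the globins, and 1 defining gene for each of 8 lineages, of which some are not reported here. The comparison, its lists and its tests were chosen with earlier results of these data known. The mitochondrially encoded list, with 13 genes, had 0 measured members. Alternatives were other scalings, background correction, filters, probe summaries, slide as a block (statmod 1.5.0), array weights and leaving out each library; removing each array's GC trend and leaving out both Alb-rich libraries were chosen after seeing the data.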

Additional observations from a re-analysis of the deposited data

Results flagged for a closer look

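Each value below was the highest or lowest of its group and lay far from the nearest of the others, measured against the range of the group (Dixon's test). Of 248 groups of 4 or 5 RiboPure arrays looked at, 18 stood out, and chance flags about 1 in 20 groups. RiboPure replicate 5 at 0 Gy held 6 of them: a mean over mature neutrophil genes of 1.495, over cardiac and skeletal muscle genes of 0.98, over glycolysis and hypoxia genes of 0.45 and over p53 targets of 1.15, with S100a8 at 8.45 and Il1b at 6.74. RiboPure replicate 3 at 2 Gy held another 6: a mean over lung and liver genes of 4.46, over cytosolic ribosomal protein genes of -0.41 and over respiratory chain genes of 0.68, with Alb at 10.32, Cd3e at -0.32 and AY036118 at 8.09. RiboPure replicate 4 at 0 Gy stood out on lung and liver genes at 3.91. RiboPure replicate 4 at 2 Gy stood out with a 75th percentile of log2 signal of 5.54, the dimmest array, and with Prss34 at -2.31. The last 3 were BC006965 at 0.22 on RiboPure replicate 3 at 0 Gy, and D3Ertd751e at -0.59 and Olfr1410 at -2.37 on RiboPure replicate 1 at 0 Gy.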

How the results depend on the processing

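Of 347 genes called, the count became 3 with 0 Gy arrays only, 145 with normexp background correction (105 higher and 40 lower), 217 when probes had to be well above background on all 12 arrays, 192 with no filter, 151 with slide as a random block, 5203 with array weights and 1136 without both Alb-rich libraries. With median scaling the split was 220 higher and 104 lower. Leaving out 1 library gave 4 to 628. Array weights give less weight to libraries that stand apart. For array brightness, probes well above background differed by values that ranged from -471.6 to 1312 when 1 library was left out (-85.12, -260.7, -54.15 and -471.6 without RiboPure replicate 5 and PAXgene replicate 6 at 0 Gy, RiboPure replicate 4 and PAXgene replicate 5 at 2 Gy). List medians that moved by more than the spread between arrays were those of dendritic cells under array weights (-0.14), basophils and related cells with normexp (0.34), the 12-array filter (0.33), array weights (0.28) and leaving out 1 library (0.36 to 0.75), ribosomal proteins with quantile normalization (0.25) and the deposited table (0.27), olfactory receptors with normexp (0.45), and unannotated RIKEN clones on at least 6 arrays (0.12) and all 12 (0.22). Medians of the gene lists changed sign, over 28 alternatives, for platelets in 14 (-0.22 to 0.17), immediate early genes in 16 (-0.11 to 0.07), NF-kB genes in 9 (-0.17 to 0.17), dendritic cells in 8 (-0.14 to 0.17), glucocorticoid genes in 3 (-0.57 to 0.30) and mature neutrophils in 1 (-0.72 to 0.06). They also did so for glycolysis and hypoxia genes in 3 (-0.147 to 0.05), G2/M and mitosis genes in 3 (-0.135 to 0.214), NRF2 genes in 2 (-0.252 to 0.031) and proteasome genes in 2 (-0.062 to 0.104). Signs turned for S100a8 (0.16) under array weights, Alas2 with quantile normalization (-0.047), the deposited table (-0.01) and the GC trend removed (-0.13), Pf4 with the same first pair (-0.25, -0.23) and without both libraries (-0.038), and Actc1 under array weights (-0.033) and without both libraries (-0.00017). The cause was not tested. All 48 called genes followed kept their direction in every alternative that tested them. No paired analysis was possible because each mouse was sampled with 1 kit and the kits share no replicate number within a dose.

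The calls rest on 3 PAXgene arrays, 1 of them at 2 Gy, so precision is limited by their number. Kit, slide and scan day cannot be told apart. Of the 35 lower RIKEN clones, 25 were well above background on no PAXgene array, so their differences are bounds.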
